A study of Nematostella vectensis with 16 samples.

Results

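Copper (Cu) and cadmium (Cd) were set directly against each other by RNA-seq of the starlet sea anemone Nematostella vectensis, a cnidarian of brackish water, taken as whole animals. The contrast used 6 of the 16 libraries of the series, 3 of Cu and 3 of Cd, chosen by their labels alone. Each metal pool held 5 animals aged 2 to 4 months, kept in the dark at 18 °C in artificial seawater of 12.5 ppt and exposed for 24 h to 100 µg/L of CuCl2 or CdCl2. Pools given HgCl2 (Hg, 3 pools) or ZnCl2 (Zn, 3 pools) at the same dose and time, and 4 untreated control pools, lay outside the contrast and were read beside it. No strain, sex or batch is given for the pools in the sources used here.

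Copper is an essential trace metal. It is a cofactor of cytochrome c oxidase in mitochondrial respiration and of copper-zinc superoxide dismutase, and in excess it drives redox reactions that damage proteins and lipids. Cadmium has no known function in animals, binds thiol groups of proteins and can take the place of zinc in them. Zinc is essential and mercury is not, so that the series holds a pair of essential and a pair of non-essential metals. None of the 27273 gene identifiers could be paired with a gene name (0 matched a RefSeq table of 38762 genes), so changes are described by number, size, level and library, and no gene is described by function.

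Raw counts summed to between 5698389 and 7200099 per Cu library and to between 6231582 and 7603413 per Cd library, within a range of 5494659 to 8113825 over all 16. Levels are given in CPM, counts scaled to library size with no correction for gene length, so they are compared between libraries and not between genes. By raw library totals, before the scaling applied to CPM, 1 CPM stood for about 5.49 to 8.11 counts. Pools of one metal differed beyond sampling noise: divided by its degrees of freedom, chi-square was 5.85 to 8.44 for pairs of Cu pools and 9.02 to 10.2 for pairs of Cd pools. Cu 3 and Cd 1 stood apart from the other pools of their group in a set of genes that varied together between pools of one group. That set summed to 1683 CPM in Cu 3 and 2684 CPM in Cd 1, against 309 to 670 CPM in the other 4 libraries. In whole animals, fewer cells of a type and less RNA per cell cannot be told apart, here and in all results that follow.

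Which transcripts differed between the essential and the non-essential metal was asked of 16276 genes that passed a filter on low counts. Most of the differences were on the copper side. In Cu pools 352 genes were higher than in Cd pools and 61 were lower at an adjusted p under 0.05 (quasi-likelihood test of edgeR, adjusted over all tested genes by Benjamini and Hochberg). These were 2.16% and 0.375% of the genes tested, and together 413 genes or 2.54%. The log2 fold change had a median of 0.79 over the 352 genes, from 0.30 to 5.09, and of -0.75 over the 61, from -0.32 to -3.43. The median over all tested genes was -0.03. The difference reached 2-fold for 119 genes higher and 20 lower in Cu, and 8-fold for 13 and 2. In all 413 genes the 3 Cu libraries did not overlap the 3 Cd libraries, which held for 9.49% (Cu above) and 8.45% (Cu below) of all tested genes. Tested against a minimum difference of 1.5-fold, 69 genes (0.424% of those tested) were higher in Cu and 5 (0.0307%) were lower (edgeR). The numbers mostly fell when libraries were left out. Genes higher in Cu numbered 227 without Cd 1, 232 without Cd 3 and 188 without both Cu 3 and Cd 1. Genes lower in Cu numbered 25 without Cu 2, 25 without Cu 3, 28 without Cd 1, 26 without Cd 3 and 11 without both Cu 3 and Cd 1, of which 9 were among the 61.

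**Figure D1:**
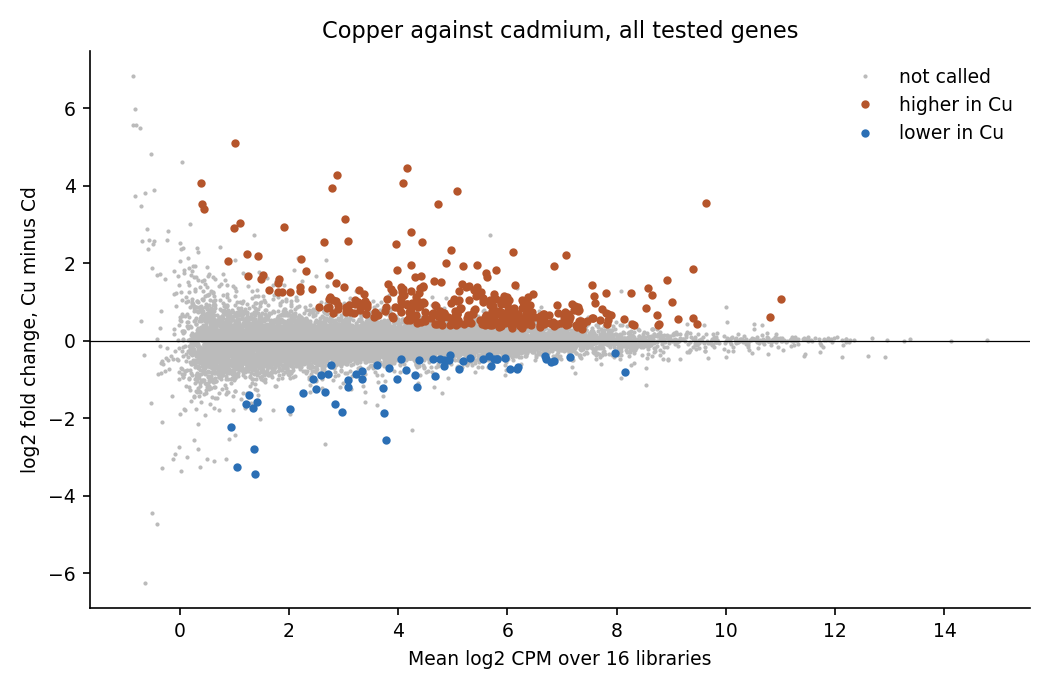
Log2 fold change between Cu and Cd (3 pools each) against mean log2 CPM over 16 libraries, 1 point per tested gene. The 352 genes higher in Cu reach 5.09, and the 61 lower genes reach -3.43. Of the 352, 233 lie in the highest of 3 equal parts of the genes by level, 93 in the middle and 26 in the lowest.

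By the rule for named genes, the greatest excess in Cu was that of v1g210079 and v1g161288. v1g210079 measured 4.6, 9.03 and 7.97 CPM in Cu 1, Cu 2 and Cu 3, and 0.166, 0.434 and 0 CPM in Cd 1, Cd 2 and Cd 3. Those Cd values stand for 1, 3 and 0 counts, so the gene was close to the limit of counting in Cd, as it was in the controls at 0 to 0.345 CPM. Its log2 fold change was 5.09 ± 0.51 (SE, edgeR adjusted p = 9.58e-06). v1g161288 measured 61.3, 111 and 134 CPM in the Cu pools and 4.80, 4.34 and 4.76 CPM in the Cd pools. The difference was 4.46 ± 0.25 log2 units (SE, edgeR adjusted p = 3.66e-08). Cu 1 was the lowest Cu pool for both genes, and lay above every Cd pool. In libraries outside the contrast, v1g161288 had 3.77 ± 0.947 CPM in the controls (SD, n = 4), 3.96 to 4.48 CPM in Zn and 350.0 to 370.0 CPM in Hg. The Zn and control libraries thus lay with Cd, and the Hg libraries lay above Cu.

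The pair with the largest deficit in Cu by the same rule were v1g218972 and v1g59063. v1g59063 measured 0.170, 0.511 and 0.290 CPM in the Cu pools, which stand for 1, 3 and 2 counts, and 4.30, 2.60 and 2.83 CPM in the Cd pools. Its log2 fold change was -3.25 ± 0.47 (SE, edgeR adjusted p = 0.000446). It had 2.25 to 4.34 CPM in the controls, 3.12 to 5.36 CPM in Zn and 0.351 to 0.865 CPM in Hg. The Cd, Zn and control ranges overlapped, and all 3 Cu and all 3 Hg libraries lay below every one of them. v1g218972 measured 0.851, 0.341 and 0.579 CPM in the Cu pools, which stand for 5, 2 and 4 counts, and 11.3, 1.88 and 6.69 CPM in the Cd pools. Its log2 fold change was -3.43 ± 0.83 (SE, edgeR adjusted p = 0.0459), with the Cd pools spread widely. That call lay close to the threshold of 0.05. It was lost when any 1 of Cu 1, Cu 2, Cu 3, Cd 1 or Cd 3 was left out. The log2 fold changes were then -3.75, -3.18, -3.42, -2.84 and -3.42, with edgeR adjusted p-values of 0.11, 0.193, 0.177, 0.156 and 0.119.

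**Figure D2:**
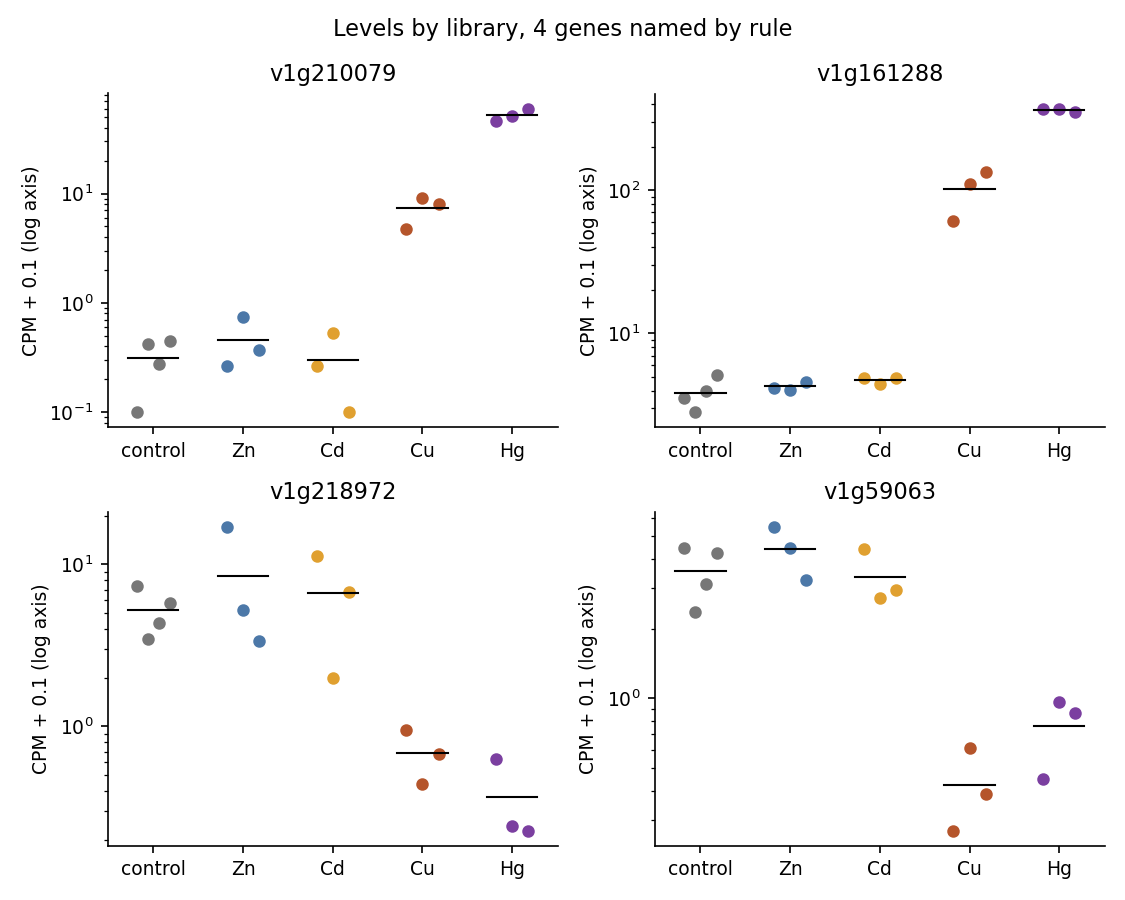
CPM plus 0.1 (log axis) of 4 genes in all 16 libraries by group, with a point per library and a line at the group mean. For the upper pair the Cu and Hg libraries lie above all others, and for the lower pair below all others.

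The 5 genes lower in Cu that passed the test against a minimum of 1.5-fold were named after their values were seen: v1g59063, v1g222324, v1g211167, v1g245598 and v1g99318. v1g222324 had a mean of 0.931 CPM in Cu, from 10, 3 and 4 counts, and of 6.37 CPM in Cd, from 5.79, 2.89 and 10.4 CPM. The difference was -2.78 ± 0.53 log2 units (SE, edgeR adjusted p = 0.00568). v1g211167 was likewise low in the Cu pools, at 4, 3 and 4 counts. v1g245598 had means of 3.53 CPM and 12.6 CPM (log2 fold change -1.82 ± 0.29 SE, edgeR adjusted p = 0.000944). All 5 were also called lower in Hg than in Zn (edgeR adjusted p from 4.54e-05 to 0.00928), where 11.3% of all tested genes were. With libraries left out singly, 1 to 8 genes passed this stricter test (8 without Cu 1 or Cd 2, 2 without Cd 3, 1 without Cu 2, Cu 3 or Cd 1), and 40 to 67 genes higher in Cu did (40 without Cd 1 and 44 without Cu 2).

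The 352 genes higher in Cu took 4.29% ± 0.2 (SD, n = 3) of all counts in Cu pools and 2.28% ± 0.13 (SD, n = 3) in Cd pools. These are the libraries that chose them, and the values are a description. In CPM they summed to 40994, 43685 and 44297 in Cu 1, Cu 2 and Cu 3, and to 21947, 22793 and 22760 in Cd 1, Cd 2 and Cd 3. In libraries outside the contrast they summed to 22660 to 24907 CPM in controls, 22395 to 23136 CPM in Zn and 66580 to 70110 CPM in Hg. Those libraries entered the choice only through the common filter, scaling and estimate of spread. Cd, Zn and control libraries lay close together, and Hg libraries lay above Cu. A single gene, v1g239529, chosen after its values were seen, made up 14.9% of the summed difference between Cu and Cd, and 10 genes made up 44.6%. It measured 2815, 3561 and 3642 CPM in the Cu pools and 286, 268 and 298 CPM in the Cd pools (log2 fold change 3.55 ± 0.13 SE, edgeR adjusted p = 2.2e-11). Cu 1 was the lowest Cu pool for 186 of the 352 genes and for 19 of the 27 genes with a difference of at least 4-fold. No such count over all tested genes is given here, so whether Cu 1 was low in general is not shown.

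The 61 genes lower in Cu took a smaller part of the transcriptome, 0.191% ± 0.0093 (SD, n = 3) of counts in Cu pools and 0.296% ± 0.016 (SD, n = 3) in Cd pools. They summed to 1986, 1876 and 1889 CPM in Cu 1, Cu 2 and Cu 3, and to 3055, 2691 and 3048 CPM in Cd 1, Cd 2 and Cd 3. Cd 2 was the lowest Cd pool for 41 of the 61 genes, with no such count over all tested genes to set beside it. Outside the contrast they summed to 2614 to 2705 CPM in controls, 2861 to 2928 CPM in Zn and 1503 to 1571 CPM in Hg. Hg libraries were the lowest, followed by Cu.

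**Figure D3:**
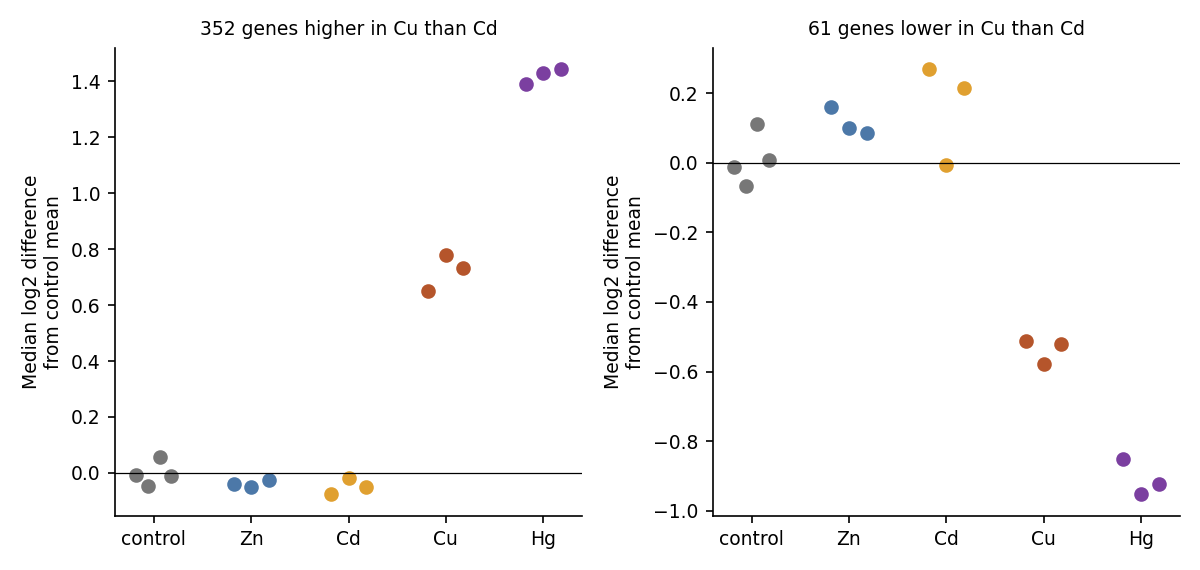
Median log2 difference from the mean of the 4 controls over the 352 genes higher in Cu (left) and the 61 lower in Cu (right), 1 point per library. In the left panel Cu libraries lie at 0.65 to 0.78, Hg libraries at 1.39 to 1.44 and Cd libraries at -0.08 to -0.02, and in the right panel Cu lies at -0.58 to -0.51 and Cd at -0.01 to 0.27.

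On which side of the untreated level the metals lay was read from each metal's own comparison with control. Both comparisons use the same 4 control libraries, and the genes were chosen for high Cu and low Cd or the reverse, so the values are set side by side without a test of their relation. Of the 352 genes, 295 (83.8%) were called higher in Cu than in control, where 3% of all tested genes were, and the median log2 fold change was 0.72. In Cd, edgeR called 2 of the 352 (0.568%) higher than control, where 0.0184% of all tested genes were, and the median was -0.06. DESeq2 called 5 of the 352 higher in Cd, and 19 of all tested genes. Before adjustment 12.2% of the 352 (16 higher and 27 lower in Cd) had an edgeR p under 0.05, against 7.03% of all tested genes. Both genes called by edgeR, named after their values were seen, were above control in Cd and higher still in Cu. v1g28119 had means of 29.6 CPM in controls, 55.0 CPM in Cd and 85.5 CPM in Cu, and v1g167250 had means of 110 CPM, 170 CPM and 298 CPM. The Cu mean was farther than the Cd mean from control for 340 of the 352 genes (96.6%) and for 59% of all tested genes.

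Of the 61 genes lower in Cu, 35 (57.4%) were called lower in Cu than in control, where 1.2% of all tested genes were, with a median log2 fold change of -0.52. The Cd median for these genes was 0.18, and none of the 61 was called between Cd and control by edgeR, with 1 called by DESeq2, which called 19 of all tested genes higher and 1 lower in Cd. Before adjustment 15 of the 61 (24.6%) had an edgeR p under 0.05, each higher in Cd. Of all 16276 tested genes 593 were higher and 551 lower in Cd at that level, 7.03% in either direction. The 61 genes were chosen in part for high values in the Cd libraries, so this share is a description and not a result. For 57 of the 352 and 26 of the 61 genes neither metal was called against control. Among those 57 the median was 0.36 in Cu and -0.25 in Cd, and among those 26 it was -0.33 in Cu and 0.32 in Cd. In those genes the medians of the metals lay on opposite sides of the controls. Picking genes called between the metals but in neither against control favours that position, so it is a description and not a result.

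**Figure D4:**
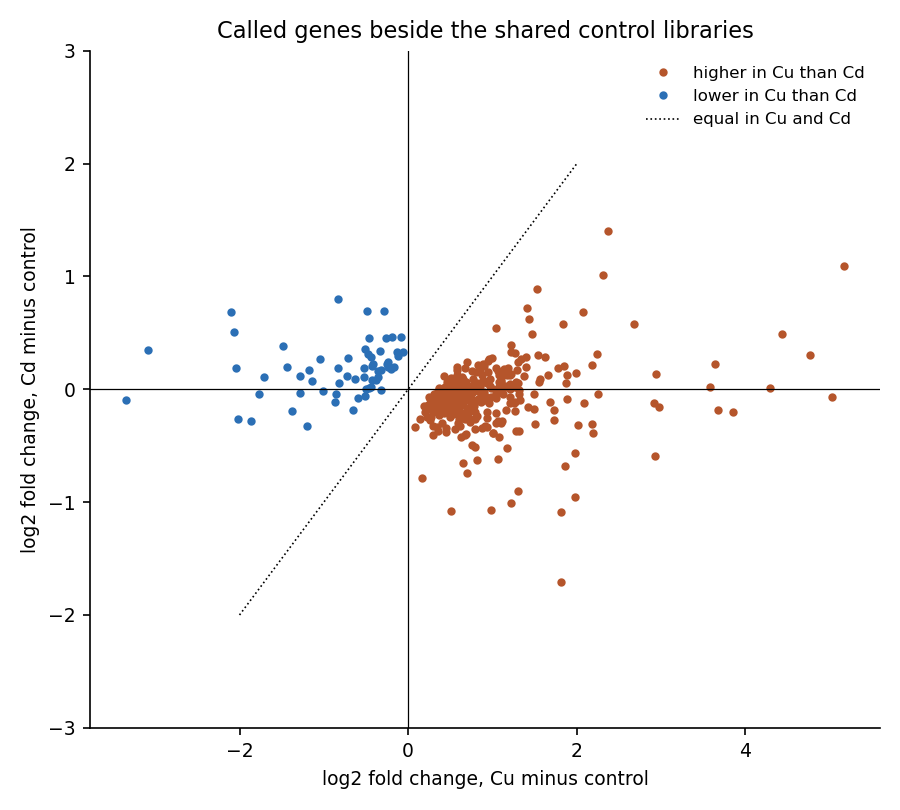
Log2 fold change against control in Cu (horizontal) and in Cd (vertical) for the 413 genes called between Cu and Cd, with 1 point per gene and a dotted line where both are equal. Most points are spread along the Cu axis and lie near 0 on the Cd axis. Both axes use the same 4 control libraries.

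Whether the genes that separated Cu from Cd also separated the other pair of an essential and a non-essential metal was read in Hg against Zn, a contrast that has no library in common with Cu against Cd. The genes on the copper side lay on the mercury side. Of the 352 genes higher in Cu than in Cd, 335 (95.2%) were called higher in Hg than in Zn (edgeR), where 15.2% of all tested genes were. The median log2 fold change over the 352 was 1.51, against -0.05 over all tested genes. Genes at higher levels were called more often, and 233 of the 352 lay in the highest of 3 equal parts by level, where 25% of all genes were called higher in Hg, against 15.5% in the middle and 5.2% in the lowest part. Of the 61 genes lower in Cu than in Cd, 50 (82%) were called lower in Hg than in Zn, where 11.3% of all tested genes were, with a median of -0.93. That share of all genes was 16.1%, 11% and 6.63% from the highest to the lowest part by level. The essential metal of one pair thus lay with the non-essential metal of the other, for genes higher and for genes lower in Cu. Over 12 other settings, leaving out each Cu and Cd library among them, these shares ran from 91.9% to 96.6% and from 72% to 95.1%.

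The relation went beyond the called genes. Of 775 genes higher in Cu than in Cd at an unadjusted p under 0.05 but not called, 68.9% were called higher in Hg than in Zn, and of 6218 genes above 0 at a larger p, 19.5% were. On the other side the shares called lower in Hg were 42.6% of 720 genes and 13.4% of 8150. For all tested genes these shares were 15.2% (Hg above Zn) and 11.3% (Hg below Zn). The values of 19.5% and 13.4% at a larger p were thus close to those of all tested genes. Calls in the opposite direction were made for 2.19% of the 775, 5.9% of the 6218, 1.81% of the 720 and 4.76% of the 8150. Across all 16276 genes the fold changes of both contrasts had a Pearson coefficient of 0.42 and a Spearman coefficient of 0.40, and across the 15863 uncalled genes 0.28 and 0.36. Here genes are not independent replicates and both contrasts come from one fit with a common scaling.

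**Figure D5:**
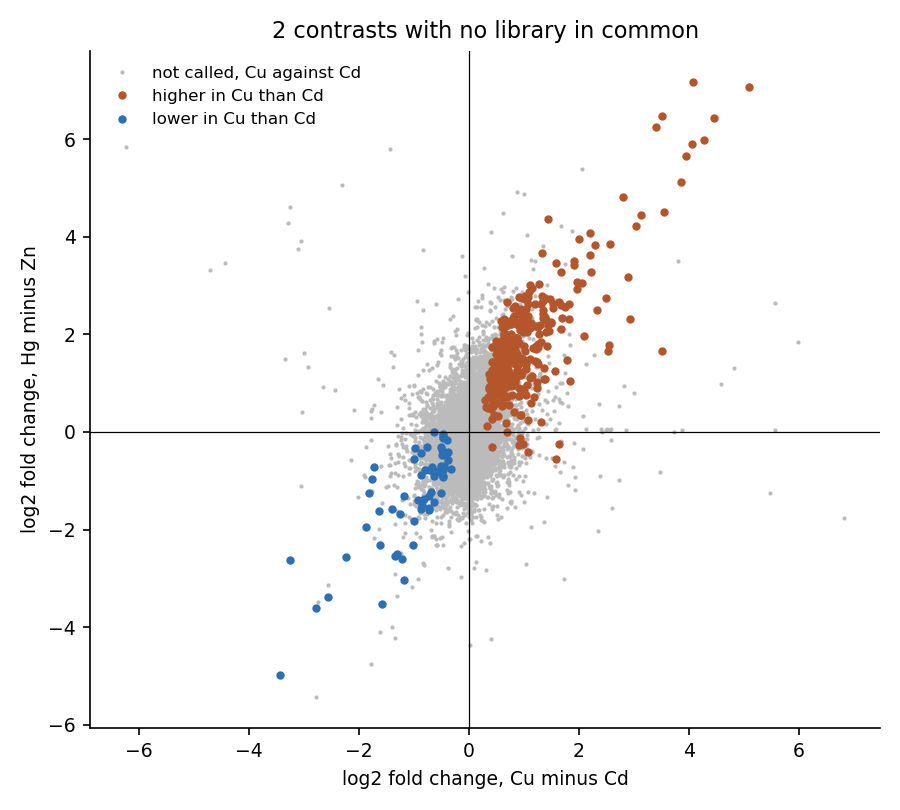
Log2 fold change in Hg against Zn (vertical) plotted against Cu against Cd (horizontal), 1 point per tested gene. Genes higher in Cu than in Cd lie mostly in the upper right, with a median of 1.51 on the vertical axis, and genes lower in Cu mostly in the lower left, with a median of -0.93.

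The difference between Hg and Zn was also the wider one. Larger Cu differences went with larger Hg differences. In Hg against Zn the median log2 difference was 1.08 for the 93 genes under 1.5-fold in Cu against Cd. It was 1.54 for the 140 genes from 1.5-fold to under 2-fold, 2.20 for the 92 genes from 2-fold to under 4-fold, and 4.07 for the 27 genes of at least 4-fold. A test of the difference between both contrasts, chosen after the data were seen, called 194 of the 352 genes as more positive in Hg against Zn (5.47% of all tested genes were) and 7 as more positive in Cu against Cd (1.64% were). Of the 61 lower genes it called 8 as more negative in Hg against Zn (1.64% of all tested genes were). It called none of them as more negative in Cu against Cd (5.47% of all tested genes were). Without overlap, Hg libraries lay above Cu libraries and these above all 10 Cd, Zn and control libraries for 261 of the 352 genes (74.1%, against 3.05% of all tested genes). The reverse order held for 21 of the 61 (34.4%, against 0.455%). The Cu libraries alone lay beyond those 10 for 328 of the 352 (93.2%, against 4.45%) and 45 of the 61 (73.8%, against 2.05%). The choice of genes fixed the order of Cu and Cd in these counts, so they are a description.

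A few of the 352 genes were higher in Cu than in Hg, and their number is not a result about the list, since the share over all genes was larger. In Hg against Cu, 258 of the 352 genes were called higher in Hg (73.3%, against 9.87% of all tested genes) and 6 lower (1.7%, against 4.37%). Of the 61, 17 were called lower in Hg (27.9%, against 4.37%). Of the 7 genes above, 6 were also the genes called higher in Cu than in Hg, a contrast that shares the Cu libraries. Of these 6, 5 were called higher in Cu than in Zn as well (2.82% of all tested genes were). All 6 were called higher in Cu than in control (3% of all tested genes were). These contrasts share the Cu libraries by which the 6 were chosen, so the counts are a description. v1g241424 measured 3897, 2721 and 3758 CPM in Cu 1, Cu 2 and Cu 3, against 1510, 1465 and 1920 CPM in the Cd pools and 1467 to 1576 CPM in Hg. Its log2 fold change was 1.08 ± 0.18 between Cu and Cd (SE, edgeR adjusted p = 0.00199), and Cu pools were the highest of all 16 libraries. v1g124608 had a mean of 293 CPM in Cu, 219 CPM in Cd and 181 CPM in Hg. It was the 1 gene of the 352 called lower in Hg than in Zn, by -0.31 ± 0.11 log2 units (SE, edgeR adjusted p = 0.045). Both v1g241424 and v1g124608 were also lower in Hg than in control (edgeR adjusted p = 0.04 and 0.0286), the only pair among the 352 that were, and were named after their values were seen. Among the 61 genes lower in Cu, v1g125609 was the 1 gene called higher in Hg than in Cu and was likewise named after its values were seen, with 17.4, 17.5 and 18.4 CPM in the Cu pools against 24.6 ± 0.416 CPM (SD, n = 3) in Cd and 25.1 to 27.3 CPM in Hg.

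No difference between Cd and Zn was called in these genes, nor in any of the 16276 tested. Neither edgeR nor DESeq2 called any gene, so the lack of calls among the 413 is not a result about them. The edgeR p before adjustment was under 0.05 for 15 of the 352 (4.26%, 7 higher and 8 lower in Cd) and 6 of the 61 (9.84%, each higher in Cd). For all tested genes the share was 3.68%. Cd against Zn shares the Cd libraries by which the genes were chosen, so these shares are a description and not a result. The median log2 fold change between Cd and Zn was 0.01 over the 352 genes and 0.03 over the 61. A p that misses the threshold does not show that the metals were equal. Cu against Zn shares the Cu libraries with the contrast described here and called 305 of the 352 genes higher (86.6%, 2.82% of all tested genes) and 43 of the 61 lower (70.5%, 0.786%). In Zn against control edgeR called none of the 413, where 0.00614% of all tested genes were called higher in Zn. Before adjustment 12.2% of the 352 (16 higher and 27 lower in Zn) and 14.8% of the 61 (9 higher) had a p under 0.05, against 7.03% of all tested genes. DESeq2 called 3 of the 352 higher and none of the 61, and 6 higher and 1 lower of all tested genes. In Hg against control 337 of the 352 genes were called higher (95.7%, 15% of all tested genes) and 50 of the 61 lower (82%, 11.7%).

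In most tested genes, called ones included, the difference between Cu and Cd could be bounded. The 95% interval of the log2 fold change lay wholly within 2-fold either way for 12477 genes, 76.7% of those tested. This share was 45% in the lowest of 3 equal parts of the genes by level, 90.6% in the middle and 94.5% in the highest, and the interval's median half-width was 0.76, 0.39 and 0.26 log2 units. The share called between Cu and Cd was 0.737%, 2.08% and 4.79% in the same parts. For 3565 genes that were not called the interval passed 2-fold, so a difference of that size was not excluded.

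A set of 20 genes summed to 693 CPM in Cd 2 and to 18.4 to 143 CPM in the other 5 libraries, and a set of 60 genes to 291 CPM in Cu 3 and to 45.7 to 61.1 CPM elsewhere. These sets, like the one high in Cu 3 and Cd 1, were chosen for their spread within groups, so whether they were called between Cu and Cd is not a result. Genes called without Cu 3 and Cd 1 were read in those 2 libraries, which had no part in the calls. Of 188 genes called higher in Cu, 99.5% were higher in Cu 3 than in Cd 1, against 47.8% of uncalled genes, with a median log2 ratio of 0.95. Of 11 called lower, 81.8% were lower in Cu 3, against 52.1% of uncalled genes. These shares rest on 1 pool per metal, and genes are not independent replicates.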

How the data were processed

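The authors deposited 1 table per metal with whole-number counts per gene model for each library, not normalized. Per the file headers the tables also hold base means, a normalized signal, and the authors' fold change (a ratio of base means), p-value and adjusted p-value against control. The deposited adjusted p-value of the Cd table exceeded 1 for some genes and was treated as a score. None of these authors' values is reported. STAR, Partek and DESeq are named, without a role, in the submitters' processing notes. Neither genome build nor counting rule is given in the sources used here, so reads of near-identical gene copies may have been split. Per the labels' protocols, Tri-reagent RNA went into TruSeq mRNA libraries.

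The deposited counts were fitted with edgeR 4.0.16 (R 4.3.3). The default filterByExpr rule kept 16276 genes, with TMM scaling. All 16 libraries entered 1 robust quasi-likelihood fit with a term per group and 11 residual degrees of freedom. Contrasts were drawn from it, with Benjamini-Hochberg adjustment over all genes at 0.05, and glmTreat for 1.5-fold. The SE is the log2 fold change divided by the square root of F. CPM use TMM-scaled library sizes, and log2 CPM a prior count of 2. Pool-variable sets hold genes whose deviations from group means correlate above 0.8 with a leading gene (SD above 0.5). Named genes were the 2 largest differences each way among the genes called whose higher group reached 1 CPM, with no overlap of Cu and Cd libraries. The 19 planned gene lists could not be matched. Alternatives were DESeq2 1.42.0, its size factors in edgeR, no filter, only the 6 libraries, a replicate block and libraries left out. The labels describe pools as separate animals, so a p-value here rests on variation from pool to pool. Members, lists and settings were chosen with earlier results of these data known. All per-library count columns were used.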

Additional observations from a re-analysis of the deposited data

How the results depend on the processing

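The number higher in Cu was 352 with the settings of the report and 305 to 459 with DESeq2 (459), DESeq2 size factors (379), no filter (401), only the 6 Cu and Cd libraries (305) or a replicate block (309). With 1 library left out it was 227 to 321. The number lower in Cu was less stable: 61 as reported, 90 by DESeq2, 40 with only the 6 libraries (27 of them among the 61) and 25 to 66 with 1 library left out. With Cu 3 and Cd 1 left out together the counts were 188 higher and 11 lower, of which 179 and 8 were also called on the same side in Hg against Zn, and 38 and 0 passed the 1.5-fold test (edgeR). At an unadjusted p under 0.05 that last test had 244 higher and 78 lower. Genes called on the same side in Hg against Zn numbered 216 to 306 (higher) and 18 to 56 (lower) with 1 library left out, and 32 lower with only the 6 libraries. The 1.5-fold test gave 40 to 67 higher and 1 to 8 lower with 1 library left out, and 1 lower with only the 6 libraries. Genes bounded within 2-fold numbered 11558 to 11754 with 1 library left out. v1g210079, v1g161288 and v1g59063 kept their direction and call in all 12 settings, and v1g218972 lost its call in 8 of 12. Why counts moved was not tested.

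Cu and Cd pools share numbers in the labels. The deviations of same-numbered pools from their group means correlated at -0.04, 0.20 and -0.19. For pools with different numbers the values ran from -0.29 (Cu 2 and Cd 1) to 0.32 (Cu 3 and Cd 1). With 3 pools per metal these values cannot settle whether the numbers pair the pools. With the replicate block 309 genes were higher and 62 lower in Cu, of which 261 and 27 were among the 352 and 61. Depth limits low genes most: by raw library totals, 1 CPM stands for only about 5.49 to 8.11 counts. DESeq2 gave no adjusted p for 1264 genes, which stayed out of its counts.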
